A study of Mus musculus with 30 samples.

Results

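The glucocorticoid-responsive genes Fkbp5, Zbtb16, Tsc22d3, Sgk1 and Dusp1, together with Nr3c1, which encodes the glucocorticoid receptor, were followed in mouse olfactory epithelium after removal of its brain target. A probe set, a group of short probes that reads 1 transcript, was taken when the platform annotation gave it exactly 1 gene and that gene was one of these 6. This gave 7 of the 12488 probe sets on the array, with 2 for Zbtb16. Of these 7, 4 were bright enough to be tested, 1 each for Fkbp5, Zbtb16, Sgk1 and Dusp1. The single probe sets of Tsc22d3 and Nr3c1 and the other one of Zbtb16 were too dim.

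The tissue was microdissected olfactory epithelium, the lining at the back of the nose that holds the smell-sensing neurons with their supporting and stem cells, from mice 6 weeks old. The groups were labelled SR-A mutant at 0, 2, 8, 16 and 48 h and wild type at 0, 2, 8, 16 and 48 h, with 3 arrays in each of the 10 groups. SR-A is a scavenger receptor of macrophages and the product of Msr1. The series as a whole concerns bilateral olfactory bulbectomy, surgery that removes both olfactory bulbs, and it is not stated whether mice of the 0 h groups were operated on, at what hour of the day tissue was taken, or how the mutant line was made. Nor is it stated that each array had its own mouse, and part of the spread on which the p-values rest could therefore be technical.

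Glucocorticoids are adrenal steroid hormones released in stress and in a daily rhythm. The hormone binds its receptor in the cytoplasm, where the receptor is held by Hsp90 and co-chaperones, and the complex moves to the nucleus and binds a palindromic DNA element near genes that it induces. Fkbp5, Zbtb16, Tsc22d3, Sgk1, Dusp1 and Per1 are widely used readouts of this action. Several of them also answer to other signals, Dusp1 to growth factors and stress kinases and Sgk1 to cell volume and mineralocorticoids.

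All values are MAS5 signals, the linear brightness of a probe set, scaled so that the 2% trimmed mean of every array lay between 1500.7 and 1500.9. Changes are log2 differences of group means ± standard error from a limma fit of all 30 arrays, with 3 arrays per group, and adjusted p-values (Benjamini-Hochberg) take in all 6968 tested probe sets. The threshold was an adjusted p of 0.05. RNA quality by the Gapdh control set the 3 mutant-labelled 2 h arrays apart, with 3' minus 5' log2 differences of 5.59, 0.15 and 1.27 against -0.31 to -0.13 in the other 27. The beta-actin control gave 2.27, 1.02 and 0.43 on these arrays, against 0.45 to 1.11 in the other 27. By beta-actin, replicate 1 lay far above the other arrays, replicate 2 lay among them and replicate 3 lay just below them. Every value below for mutant-labelled 2 h rests on these arrays, as do the differences between genotypes at 2 h and the genotype and time test. The fit of all 30 arrays estimates 1 spread per probe set, so these arrays also enter the standard errors and p-values of every other comparison. The part of RNA quality in these results was not tested. Msr1 did not check the labels, since its brighter probe set read 297.5 to 587.4 in the mutant-labelled arrays and 32.6 to 295.1 in the wild-type-labelled arrays, so that directions between genotypes rest on the labels alone. Omp, the defining marker of mature olfactory sensory neurons, read 128.5, 16964.3 and 3389.5 on the mutant-labelled 2 h arrays, at least 19230.3 on every other mutant-labelled array, and 16299.5 to 34452.9 on the wild-type-labelled arrays. The sum of 6 markers of these neurons, Omp among them, did not fall to the same degree. It was 71847.6 to 78438.4 at mutant-labelled 2 h and 93158.3 to 110654 at mutant-labelled 0 h.

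Fkbp5, a co-chaperone that binds Hsp90 and lowers the receptor's affinity for hormone, differed between the labelled genotypes before any later time point. It started low in the mutant-labelled epithelium and was higher there at 48 h. It started high in the wild-type-labelled epithelium, was lower at 2 h, was higher at 8 h than at 2 h, and was again lower than the start at 16 h. In the mutant-labelled arrays its signals were 2107.7, 1758.8 and 2241.5 at 0 h and 3164.1, 1896.6 and 2350.4 at 2 h. At 8 h they were 3131.4, 3496.9 and 3405.0, at 16 h 3547.7, 2626.5 and 3600.1, and at 48 h 3201.2, 2763.5 and 4590.7. Every mutant-labelled array at 8, 16 and 48 h thus lay above every mutant-labelled array at 0 h, as did those of 12.3%, 13.8% and 13.9% of all probe sets. The wild-type-labelled signals were 4639.6, 2993.8 and 4246.3 at 0 h and 1677.7, 1786.8 and 2010.5 at 2 h. At 8 h they were 3434.3, 4412.3 and 3017.2, at 16 h 2727.0, 2713.5 and 1794.0, and at 48 h 3477.3, 3094.5 and 3305.7. The wild-type-labelled 2 h and 16 h arrays lay below all 3 arrays at 0 h, as did those of 16.7% and 18.9% of all probe sets, and those at 8 h and 48 h overlapped them.

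In the mutant-labelled epithelium Fkbp5 rose at 48 h, to an average of 3518.5 ± 954 (SD, n = 3) against 2036 ± 249.2 (SD, n = 3) at 0 h, a log2 difference of 0.76 ± 0.21 (adjusted p = 0.0226). In that comparison 9.47% of tested probe sets were called. The differences from 0 h were nearly as large earlier but missed the threshold, with 0.72 ± 0.21 (adjusted p = 0.0793) after 8 h and 0.67 ± 0.21 (adjusted p = 0.075) after 16 h. The 8 h difference was called in a fit of its 6 arrays (adjusted p = 0.0252), and both were when mutant-labelled 2 h replicate 1 was omitted (adjusted p = 0.0496 and 0.0498). With all 3 mutant-labelled 2 h arrays omitted the 16 h difference had adjusted p = 0.0496 and the 48 h difference adjusted p = 0.0133. At 2 h, in the arrays of doubtful RNA, the difference was 0.25 ± 0.21 (adjusted p = 0.433). The 48 h call was lost without 0 h replicate 1 or 2 (adjusted p = 0.053 and 0.103), without 48 h replicate 3 (adjusted p = 0.151) and in a fit of the 6 arrays (adjusted p = 0.086).

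In the wild-type-labelled epithelium Fkbp5 averaged 1825 ± 169.7 (SD, n = 3) at 2 h and 3959.9 ± 859.5 (SD, n = 3) at 0 h, a log2 difference of -1.10 ± 0.21 (limma adjusted p = 0.0295). It was the only tested member called in that comparison, in which 0.574% of all tested probe sets were called. Between 8 h and 2 h it rose by 0.97 ± 0.21 (adjusted p = 0.0211), where 1.08% of probe sets were called, and that comparison does not use the 0 h arrays. At 16 h against 0 h it fell by 0.72 ± 0.21 (adjusted p = 0.0409). At 48 h the difference from 0 h was -0.24 ± 0.21 (adjusted p = 0.483). The 2 h call rested on few arrays. It was lost when either the first or the third 0 h replicate was omitted (adjusted p = 0.139 and 0.123) and when any 1 of the 3 replicates at 2 h was (adjusted p = 0.0838, 0.138 and 0.0784), with differences between -1.17 and -0.97. The 16 h call was lost without 0 h replicate 1 (adjusted p = 0.18) or 3 (adjusted p = 0.133), without 16 h replicate 1, 2 or 3 (adjusted p = 0.0631, 0.0524 and 0.205), without the filter on dim probe sets (adjusted p = 0.0709) and in a fit of the 6 arrays alone (adjusted p = 0.0794). The rise between 2 h and 8 h was lost without 2 h replicate 1, 2 or 3 (adjusted p = 0.111, 0.0864 and 0.0555), without 8 h replicate 1 or 2 (adjusted p = 0.0862 and 0.0958) and in a fit of those 6 arrays (adjusted p = 0.15).

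Zbtb16, the zinc finger repressor also called PLZF and among the most strongly hormone-induced genes in many cell types, followed a course like that of Fkbp5 with larger swings and more spread. Its brighter probe set read 835.6, 678.1 and 678.0 in the mutant-labelled arrays at 0 h and 1353.7, 793.7 and 1046.4 at 2 h. At 8 h it read 771.7, 880.9 and 1175.0, at 16 h 1684.9, 731.5 and 1362.7, and at 48 h 1768.3, 363.1 and 1747.5. The mutant-labelled groups overlapped one another, and at 48 h 1 array was the lowest of all 15 while the other two were the highest. In the wild-type-labelled arrays it read 3054.9, 1885.0 and 2691.6 at 0 h and 830.6, 574.2 and 1174.1 at 2 h. At 8 h it read 690.6, 1666.0 and 2523.3, at 16 h 602.2, 567.3 and 284.2, and at 48 h 1342.6, 859.3 and 904.0. The wild-type-labelled 2, 16 and 48 h arrays all lay below the 0 h arrays, as did those of 16.7%, 18.9% and 19.4% of all probe sets, and the 8 h arrays spread over the whole range between them.

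In the mutant-labelled arrays the Zbtb16 differences from 0 h were 0.52, 0.35, 0.71 and 0.52 at 2, 8, 16 and 48 h, each ± 0.49 and none past the threshold (adjusted p from 0.478 to 0.846), with the arrays of doubtful RNA at 2 h. The 95% confidence intervals were wide, and the one at 16 h ran from -0.30 to 1.72. At 16 h the wild-type-labelled Zbtb16 mean was 484.6 ± 174.4 against 2543.8 ± 598.8 at 0 h (SD, n = 3 each), a log2 difference of -2.44 ± 0.49 (adjusted p = 0.00537). This call held without any 1 of the 30 arrays and under all 7 other settings tried. The difference from 0 h was -1.60 ± 0.49 at 2 h, where adjusted p = 0.1, and -0.81 ± 0.49 at 8 h, where adjusted p = 0.753. At 48 h it was -1.30 ± 0.49 with adjusted p = 0.0769, so that none of these 3 passed the threshold. The 48 h difference was called in a fit of only the 6 arrays (adjusted p = 0.0156) and when mutant-labelled 48 h replicate 2 was omitted (adjusted p = 0.0248). Omitting that array also brought adjusted p = 0.0354 for wild-type-labelled 16 h against 8 h, and omitting wild-type-labelled 8 h replicate 1 gave adjusted p = 0.0288. The dimmer Zbtb16 probe set was at or below the floor of 113.7 on 29 of 30 arrays and so did not check this course.

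**Figure D1:**
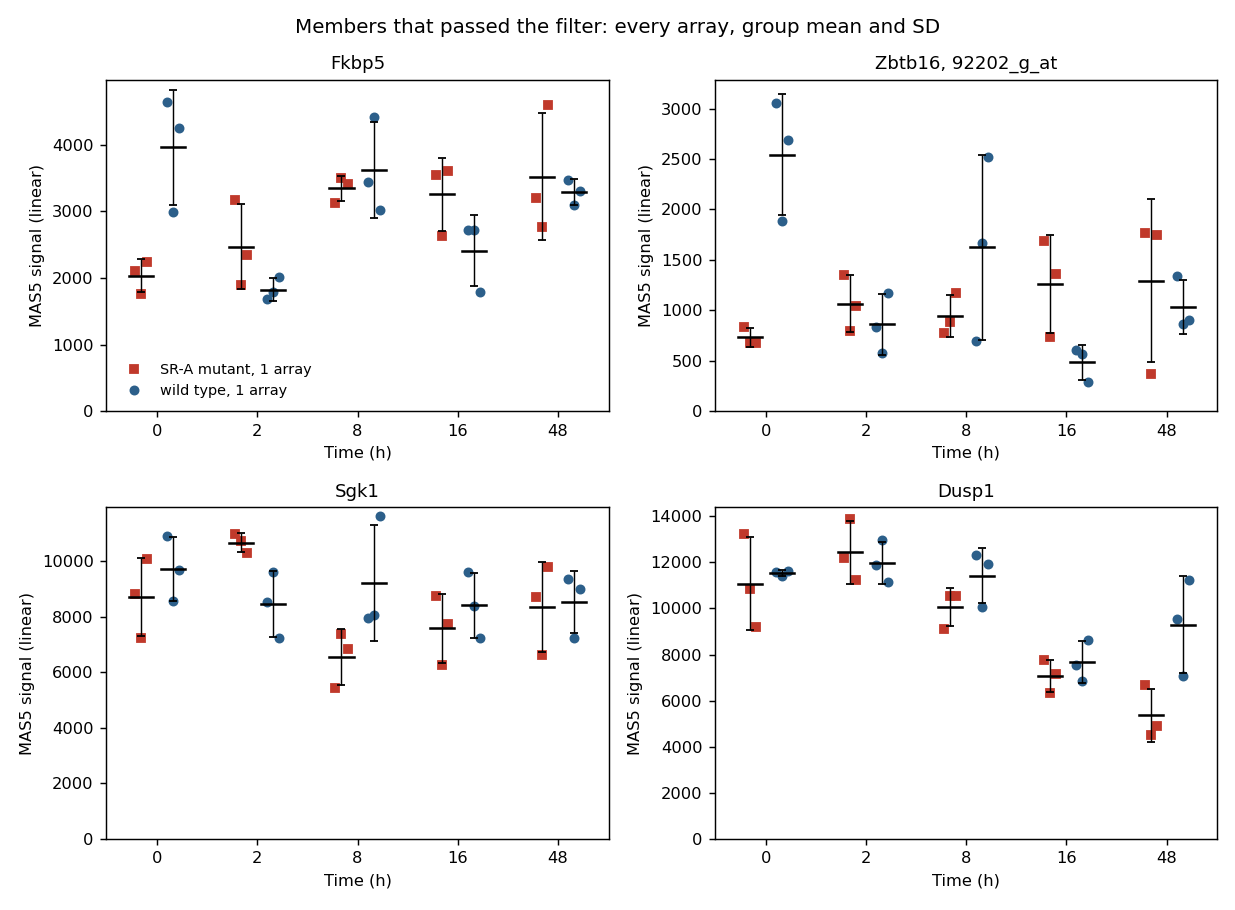
MAS5 signal (linear, vertical axis) of the 4 member probe sets that passed the filter, on every array, against time in hours. Squares are SR-A mutant and circles wild type, the black bar is the mean of 3 arrays and the whisker the SD. Fkbp5 and Zbtb16 were highest in the wild type at 0 h, Sgk1 stayed between 5439 and 11635.5, and Dusp1 fell in both genotypes by 16 h.

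The labelled genotypes differed most in Fkbp5 and Zbtb16 at 0 h. Fkbp5 was lower in the mutant-labelled than in the wild-type-labelled arrays by a log2 difference of -0.94 ± 0.21 (adjusted p = 0.00407), with no overlap of the 3 against 3 arrays. Zbtb16 was lower by -1.78 ± 0.49 (adjusted p = 0.0153), also with no overlap. These 2 of 4 tested members were called in a comparison in which 18.3% of all tested probe sets were called. Of all tested probe sets 10.7% were called lower, as these 2 were, and 25.4% lay lower without overlap. The Zbtb16 call was lost without wild-type-labelled 0 h replicate 1 or 3 (adjusted p = 0.0608 and 0.0516) or mutant-labelled 0 h replicate 2 (adjusted p = 0.052). At 2, 8, 16 and 48 h neither gene was called between the genotypes. The Fkbp5 differences at those times, of which those at 2 h use the arrays of doubtful RNA, were 0.41 ± 0.21, -0.10 ± 0.21, 0.45 ± 0.21 and 0.06 ± 0.21, and the 48 h interval ran from -0.37 to 0.50. Zbtb16 differed by 0.34, -0.62, 1.37 and 0.04, each ± 0.49. At 16 h its mutant-labelled arrays, 731.5 to 1684.9, all lay above the wild-type-labelled ones, 284.2 to 602.2, as did those of 15.6% of probe sets, without passing the threshold (adjusted p = 0.0833; 0.0308 when mutant-labelled 48 h replicate 2 was omitted).

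A moderated F test of whether the changes from 0 h differ between the genotypes called both genes, Fkbp5 with adjusted p = 0.0113 and Zbtb16 with adjusted p = 0.0259. Of all tested probe sets 14.7% were called by it. The mutant-labelled change minus the wild-type-labelled change in Fkbp5 was 1.35 ± 0.30 at 2 h, 0.84 ± 0.30 at 8 h, 1.39 ± 0.30 at 16 h and 1.01 ± 0.30 at 48 h. In Zbtb16 it was 2.11, 1.16, 3.15 and 1.81, each ± 0.69. The 2 h values of both genes use the arrays of doubtful RNA. All 4 of these differences share the 0 h arrays of both genotypes, which are also the arrays where the genotypes differed. Without the mutant-labelled 2 h arrays, over 8, 16 and 48 h, the adjusted p was 0.0205 for Fkbp5 and 0.0413 for Zbtb16. The Zbtb16 call was lost without the filter (adjusted p = 0.0621) and without wild-type-labelled 0 h replicate 1 or 3, 16 h replicate 3, mutant-labelled 0 h replicate 3 or 16 h replicate 1 (adjusted p = 0.0565, 0.0515, 0.0558, 0.0502 and 0.0522).

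**Figure D2:**
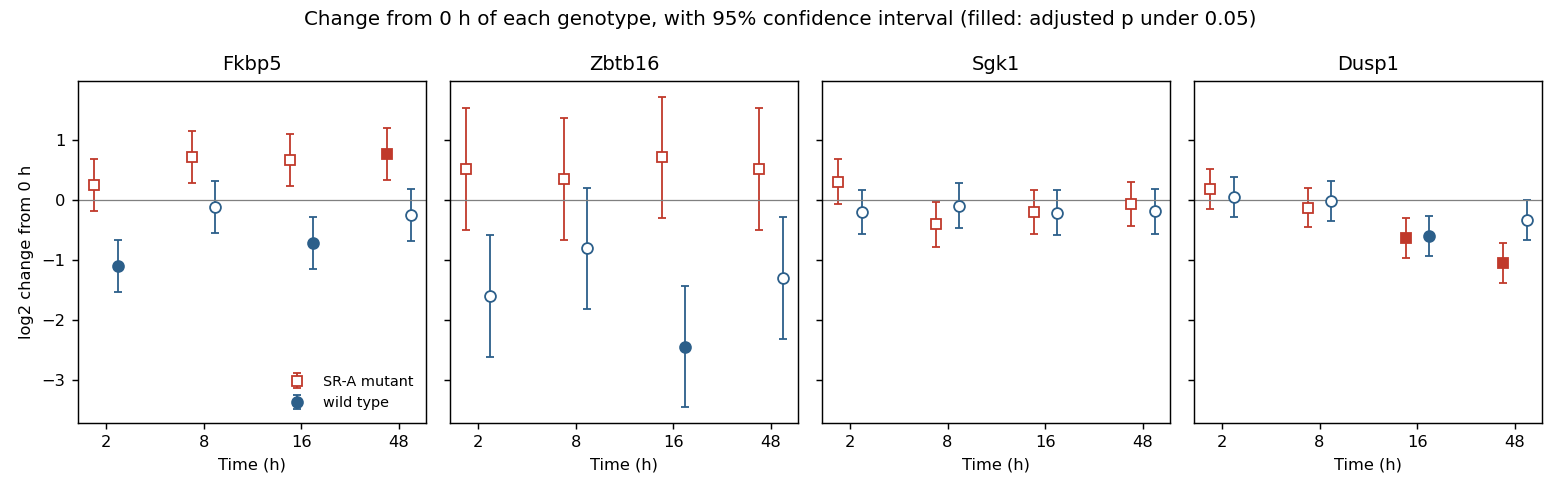
log2 change from 0 h (vertical axis) of the 4 tested members at 2, 8, 16 and 48 h, with 95% confidence intervals. Red squares are SR-A mutant, blue circles wild type, and filled symbols passed an adjusted p of 0.05. The Fkbp5 and Zbtb16 estimates lay above 0 in the mutant and below it in the wild type at every time, though most did not pass. All changes of a genotype share its 0 h arrays. Dusp1 lay below 0 in both genotypes at 16 h and 48 h, and above it at 2 h.

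In the order of group means, Fkbp5 was highest in the wild-type-labelled 0 h group and next in the wild-type-labelled 8 h, mutant-labelled 48 h and mutant-labelled 8 h groups. It was lowest in the wild-type-labelled 2 h group and next lowest in the mutant-labelled 0 h group. Every group overlapped its neighbour in that order, so that no single step between neighbours exceeded the spread. Zbtb16 also had its highest means in the wild-type-labelled 0 h and 8 h groups and then in the mutant-labelled 48 h group, but its lowest in the wild-type-labelled 16 h group. The step between that group and the mutant-labelled 0 h group was the only one without overlap.

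Over the 18 comparisons, which share arrays, the 4 tested members gave 11 calls in 72 tests, 5 for Fkbp5, 4 for Dusp1, 2 for Zbtb16 and 0 for Sgk1. These fell in 7 comparisons. In mutant-labelled tissue 1 of 4 was called at 16 h against 0 h and 2 of 4 at 48 h, where 3.65% and 9.47% of all probe sets were. In wild-type-labelled tissue 1 of 4 was called at 2 h and 3 of 4 at 16 h, where 0.574% and 6.53% were, and 1 of 4 between 8 h and 2 h, where 1.08% were. Between genotypes 2 of 4 were called at 0 h and 1 of 4 at 48 h, where 18.3% and 16.3% were.

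The other 11 comparisons called no tested member. In mutant-labelled tissue 0 of 4 were called at 2 h, on the arrays of doubtful RNA, and at 8 h against 0 h, where 17.7% and 1.91% of all probe sets were. In wild-type-labelled tissue 0 of 4 were called at 8 h and 48 h, where 0.201% and 15% were. Between successive later times, 0 members were called for mutant-labelled 16 h against 8 h (1.89% of probe sets) and 48 h against 16 h (6.1%), and for wild-type-labelled 16 h against 8 h (1.23%) and 48 h against 16 h (3.65%). Between genotypes, 0 were called at 2 h, 8 h and 16 h, where 9.03%, 2.94% and 8.42% of probe sets were. By limma's unadjusted p under 0.05 the counts in these 11 comparisons ran from 0 to 3, the highest for wild-type-labelled 16 h against 8 h. The share of all probe sets under that unadjusted cut was not computed, so these counts cannot be set against it.

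**Figure D3:**
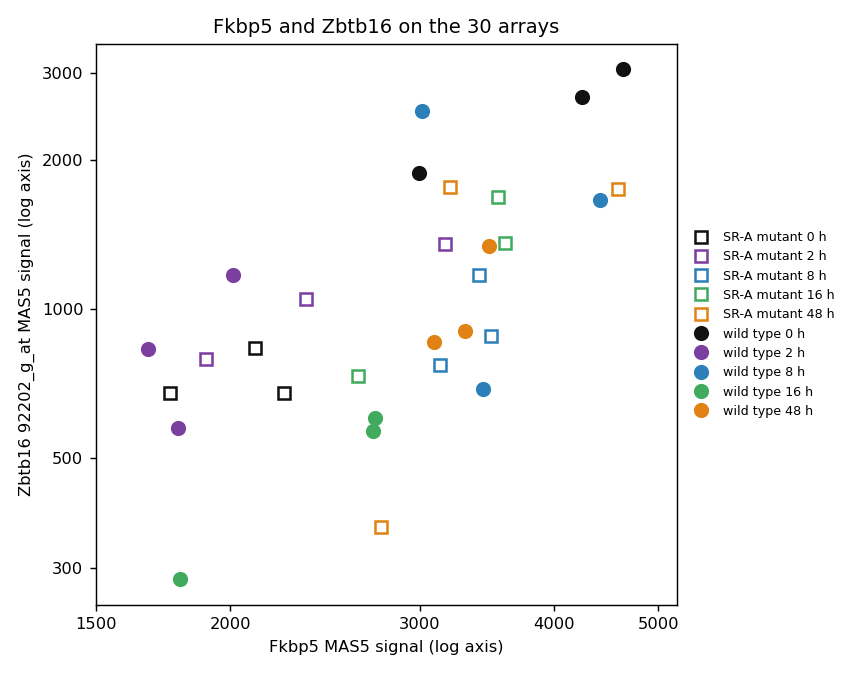
Zbtb16 signal (brighter probe set, vertical) against Fkbp5 signal (horizontal), both on log axes, with 1 point per array; open squares are SR-A mutant, filled symbols wild type, and colour gives the time. Of the wild-type 0 h arrays, black and filled, replicates 1 and 3 lie at the upper right. Replicate 2 lies nearer the middle (Fkbp5 2993.8, Zbtb16 1885.0). The wild-type 2 h and mutant 0 h arrays lie at the left.

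Fkbp5 and Zbtb16 also varied together array by array. Over the 27 arrays outside the mutant-labelled 2 h group their log2 signals had a Pearson r of 0.66, and over the 9 group means 0.71. With each group's mean taken out, so that only differences between arrays of 1 group remain, r was 0.58 over the same 27 arrays. These are descriptions of arrays that share their scaling and tissue. Sgk1 followed Zbtb16 within groups with r = 0.63 and Fkbp5 with r = 0.49, although its group means followed Fkbp5 with r = -0.0025. Dusp1 followed Fkbp5 with r = -0.21 over the 27 arrays and -0.24 over group means.

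Promoter sequences are given for 3 members whose courses differed, Fkbp5, Sgk1 and Dusp1, from RefSeq on GRCm38.p6, 250 bases before to 50 after a start site and read 5' to 3' on the gene's strand. Of the members other than Nr3c1, Fkbp5 and Dusp1 had 1 such window each, Tsc22d3 3 and Sgk1 6. Capitals mark matches on either strand to the receptor's palindrome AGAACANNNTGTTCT, to its arm AGAACA, to the cyclic AMP element TGACGTCA, to its arm TGACG, or to TATAAA, where arms lying inside a full element overlap it.
Fkbp5, chr17:28486100-28486399, minus strand: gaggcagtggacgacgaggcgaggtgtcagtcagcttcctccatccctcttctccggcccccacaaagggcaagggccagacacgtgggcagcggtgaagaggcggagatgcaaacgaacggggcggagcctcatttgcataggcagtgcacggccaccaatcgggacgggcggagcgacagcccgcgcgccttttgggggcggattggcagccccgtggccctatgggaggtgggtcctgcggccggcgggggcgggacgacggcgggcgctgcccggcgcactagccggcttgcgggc
Sgk1, chr10:21993640-21993939, plus strand: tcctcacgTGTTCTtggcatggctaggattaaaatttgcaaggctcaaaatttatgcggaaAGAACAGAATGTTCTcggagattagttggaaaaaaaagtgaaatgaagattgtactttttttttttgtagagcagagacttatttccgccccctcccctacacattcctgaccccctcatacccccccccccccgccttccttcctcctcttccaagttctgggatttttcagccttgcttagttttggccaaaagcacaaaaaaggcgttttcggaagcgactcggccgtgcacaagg
Dusp1, chr17:26508423-26508722, minus strand: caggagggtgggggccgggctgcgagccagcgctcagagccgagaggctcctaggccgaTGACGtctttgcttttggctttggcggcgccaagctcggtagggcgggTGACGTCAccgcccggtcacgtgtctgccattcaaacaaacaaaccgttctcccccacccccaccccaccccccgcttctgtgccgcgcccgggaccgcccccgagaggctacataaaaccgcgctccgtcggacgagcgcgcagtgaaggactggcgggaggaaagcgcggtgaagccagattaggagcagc
The Fkbp5 window held none of these letters. The Sgk1 window, 1 of its 6, held the full palindrome as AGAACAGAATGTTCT, its first base at position -189 from the start site, and 1 more arm outside it. Of 32851 mouse windows of this length 3, or 0.0091%, held the full palindrome, in Sgk1, Acnat2 and Gm35041, and 6233 held the arm. The Dusp1 window held TGACGTCA, found in 1.79% of windows, with its first base at position -143, and another TGACG arm outside it. No hormone receptor binding was measured here, and a match is a description of letters only.

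Sgk1, a kinase that stabilises sodium channels and other transporters at the membrane, passed the threshold in none of the 18 comparisons despite a bright signal. It read 8835.7, 7235.4 and 10069.7 in the mutant-labelled arrays at 0 h and 10984.4, 10743.7 and 10311.4 at 2 h. At 8 h it read 5439.0, 7397.4 and 6853.4, at 16 h 8743.2, 6253.1 and 7755.8, and at 48 h 8709.8, 6608.0 and 9796.2. The mutant-labelled 2 h arrays were the highest of that genotype and lay above all 3 at 0 h, as did those of 16.5% of all probe sets, and their RNA quality stood apart as given above. In the wild-type-labelled arrays it read 10901.5, 8581.6 and 9683.0 at 0 h and 8527.5, 9625.1 and 7228.0 at 2 h. At 8 h it read 7941.7, 8058.6 and 11635.5, at 16 h 9604.1, 8402.2 and 7227.3, and at 48 h 9348.0, 7251.5 and 9010.4. All 5 wild-type-labelled groups overlapped.

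The Sgk1 differences in those 18 comparisons lay between -0.48 and 0.35 on the log2 scale, with 0 past the adjusted threshold. At limma's unadjusted p under 0.05, where the share of all probe sets was not computed, 2 of them passed. Both involved the mutant-labelled 8 h arrays, the group with the lowest mean. That group differed by -0.41 ± 0.18 from mutant-labelled 0 h (adjusted p = 0.293) and by -0.48 ± 0.18 from wild-type-labelled 8 h (adjusted p = 0.127). Its arrays all lay below those at wild-type-labelled 8 h, as did those of 14.5% of all probe sets. At 2 h the mutant-labelled arrays, of doubtful RNA, all lay above the wild-type-labelled ones, as did those of 11.5%. The wild-type-labelled change at 2 h was -0.20 with a 95% confidence interval from -0.57 to 0.17, and the 48 h change -0.19, from -0.56 to 0.18. In the order of Sgk1 means, which ran downward from mutant-labelled 2 h through wild-type-labelled 0 h to mutant-labelled 16 h and 8 h, every group overlapped its neighbour. The genotype and time test gave adjusted p = 0.148.

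Dusp1, a phosphatase that switches off MAP kinases and is both hormone-induced and an immediate early gene, fell late in both genotypes. It read 13214.1, 10827.8 and 9193.0 in the mutant-labelled arrays at 0 h and 12193.0, 13904.1 and 11225.1 at 2 h. At 8 h it read 9090.8, 10540.5 and 10540.1, at 16 h 7749.8, 6331.7 and 7138.3, and at 48 h 6659.6, 4509.0 and 4916.1. The 16 h and 48 h mutant-labelled arrays all lay below those at 0, 2 and 8 h, and 12% and 12.4% of all probe sets lay below 0 h in this way at 16 h and 48 h. In the wild-type-labelled arrays it read 11598.3, 11401.0 and 11630.5 at 0 h and 11876.6, 12957.8 and 11130.7 at 2 h. At 8 h it read 12309.0, 10064.4 and 11913.3, at 16 h 7546.9, 6855.3 and 8645.3, and at 48 h 9565.0, 7086.2 and 11250.7. The wild-type-labelled 16 h arrays lay below all earlier ones, where 18.9% of probe sets lay below 0 h. Those at 48 h spread more widely and all lay below 0 h, as did 19.4% of probe sets.

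Dusp1 averaged 7073.3 ± 711.3 at 16 h and 11078.3 ± 2022.2 at 0 h in the mutant-labelled arrays (SD, n = 3 each), a log2 difference of -0.64 ± 0.16 (adjusted p = 0.0274), where 3.65% of probe sets were called. At 48 h it averaged 5361.6 ± 1142.4 (SD, n = 3), and the difference from 0 h was -1.05 ± 0.16 (adjusted p = 0.00018). In the wild-type-labelled arrays it averaged 7682.5 ± 902.7 at 16 h and 11543.3 ± 124.3 at 0 h (SD, n = 3 each), a difference of -0.59 ± 0.16 (adjusted p = 0.0286). Dusp1, Fkbp5 and Zbtb16 were thus 3 of 4 tested members called at wild-type-labelled 16 h, all lower, where 6.53% of all probe sets were called and 3.04% were called lower. At 48 h the wild-type-labelled difference was -0.34 ± 0.16 (adjusted p = 0.164). At 2 h the Dusp1 difference from 0 h was 0.18 ± 0.16 in the mutant-labelled arrays, those of doubtful RNA, and 0.05 ± 0.16 in the wild-type-labelled arrays, neither past the threshold.

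The genotypes differed in Dusp1 at 48 h, where the mutant-labelled minus wild-type-labelled difference was -0.79 ± 0.16 (adjusted p = 0.00157) with no overlap. In that comparison 16.3% of all probe sets were called and 16% lay lower without overlap. At 0, 2, 8 and 16 h the differences were -0.08, 0.05, -0.18 and -0.12, each ± 0.16 and none called. The genotype and time test gave adjusted p = 0.0605 for Dusp1. It was past the threshold without mutant-labelled 0 h replicate 3 (adjusted p = 0.0465), mutant-labelled 48 h replicate 1 (0.0204) or wild-type-labelled 48 h replicate 2 (0.0154), and with a variance trend and robust moderation (adjusted p = 0.0468). The 48 h genotype call was lost in a fit of the 6 arrays alone (adjusted p = 0.0744), and the mutant-labelled 16 h call in a like fit (adjusted p = 0.0889). The mutant-labelled 16 h call was lost without 0 h replicate 1 or 2 (adjusted p = 0.137 and 0.0701) or 16 h replicate 2 or 3 (adjusted p = 0.12 and 0.0661). The wild-type-labelled one was lost without 0 h replicate 1, 2 or 3 (adjusted p = 0.0844, 0.0661 and 0.08) or 16 h replicate 1 or 2 (adjusted p = 0.0888 and 0.106). Single arrays also brought calls for 48 h against 16 h in the mutant-labelled arrays (adjusted p = 0.0297 without 48 h replicate 1) and for 16 h against 8 h in the wild-type-labelled arrays (adjusted p = 0.0485 without mutant-labelled 48 h replicate 1 and 0.0497 without wild-type-labelled 48 h replicate 2). The Dusp1 calls at 16 h against 0 h in both genotypes, at mutant-labelled 48 h and between genotypes at 48 h held when the mutant-labelled 2 h arrays were omitted.

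Nr3c1, the receptor itself, and Tsc22d3, which encodes the leucine zipper protein GILZ that binds NF-kappaB, were too dim to be tested with the rest. No array exceeded the pooled median of 572 in either. Nr3c1 read between 188.4 and 307.9 on the 27 arrays outside the mutant-labelled 2 h group, and every group among those overlapped its neighbour in the order of means. It read 48.5, 93.2 and 174.0 on the mutant-labelled 2 h arrays, against 223.4, 285.5 and 248.5 at mutant-labelled 0 h and 251.1, 237.8 and 235.9 at wild-type-labelled 2 h. In a fit without the filter that is a log2 difference of -0.94 ± 0.17 from mutant-labelled 0 h (adjusted p = 0.00119), where 9.71% of all 12422 probe sets were called. Against wild-type-labelled 2 h it was -0.88 ± 0.17 (adjusted p = 0.00321), where 4.35% were called. These are the 3 arrays whose Gapdh 3' minus 5' differences were 5.59, 0.15 and 1.27, and the part of RNA quality in the result was not tested.

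Tsc22d3 read 56.5 to 292.6 over the 30 arrays, with 7 of them at or below the floor. The mutant-labelled 8 h arrays read 153.4, 207.0 and 179.9, against 94.6, 56.5 and 71.7 on the wild-type-labelled 8 h arrays, all 3 of these at or below the floor. At wild-type-labelled 2 h it read 172.3, 177.4 and 207.0. In the fit without the filter the wild-type-labelled difference between 8 h and 2 h was -0.70 ± 0.28 after flooring (adjusted p = 0.339). The mutant-labelled 8 h arrays differed from the wild-type-labelled ones by 0.65 ± 0.28 (adjusted p = 0.26). No comparison called Tsc22d3, and at this brightness a change could be hidden by background.

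**Figure D4:**
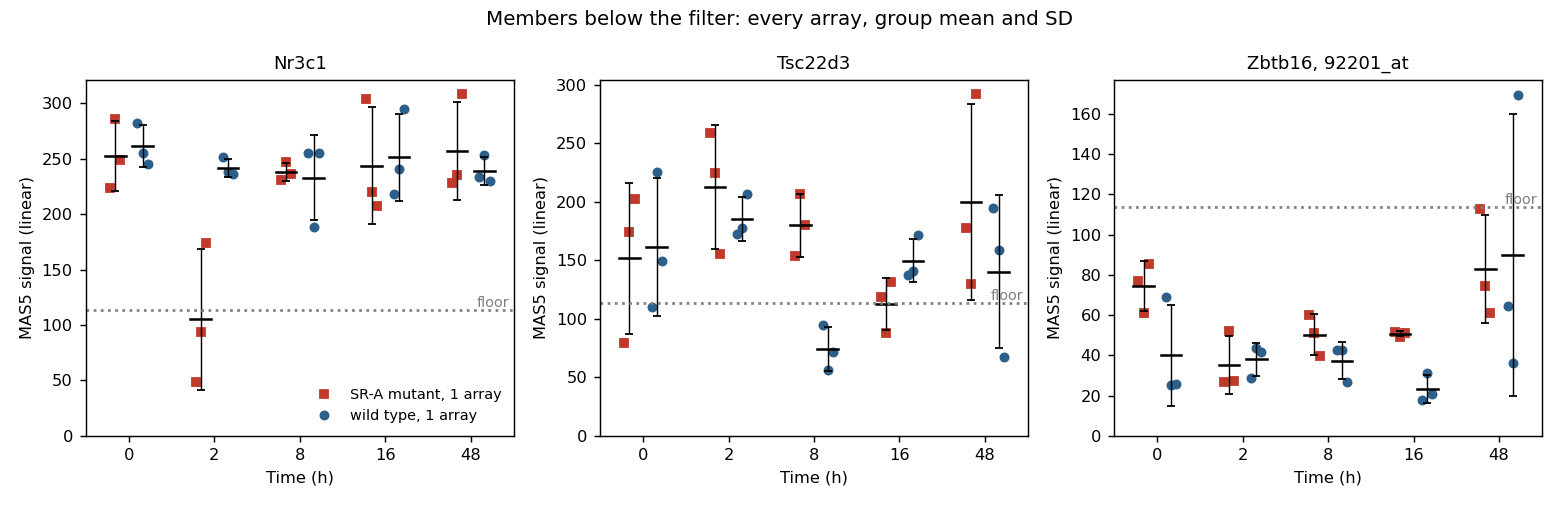
MAS5 signal (linear, vertical axis) of the 3 member probe sets below the filter, on every array, against time in hours; squares are SR-A mutant, circles wild type, bars means and whiskers SD. The dotted line is the floor of 113.7. Nr3c1 was low only on the SR-A mutant 2 h arrays, and the dimmer Zbtb16 probe set lay at or below the floor on 29 of 30 arrays.

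Genes that carry, fold or feed the receptor were read next. The members and these lists were chosen with earlier results known, so their counts are descriptions. In these counts a gene rose, fell or changed only if it passed the adjusted threshold, so that 0 changed means 0 called. For comparison, of all 5396 tested genes 7.58%, 1.32%, 2.08% and 5.08% were higher at mutant-labelled 2, 8, 16 and 48 h than at 0 h, and 8.95%, 0.667%, 1.95% and 5.17% were lower. In wild-type-labelled tissue 0.519%, 0.167%, 3.52% and 8.15% were higher at those times, and 0.167%, 0.0185%, 2.89% and 7.25% were lower. Of 10 tested genes of the receptor's chaperones, coactivators and hormone handling, 1 fell in mutant-labelled tissue at 2 h, on the arrays of doubtful RNA, 0 changed at 8 h and 2 fell at 16 h, among them the Hsp70 partner Dnajb1 (-1.01 ± 0.24, adjusted p = 0.0184). In wild-type-labelled tissue 0 changed at 2 h or 8 h and 1 fell at 16 h, again Dnajb1 (-1.04 ± 0.24, adjusted p = 0.0115). At mutant-labelled 48 h 3 fell, Dnajb1 (-1.03 ± 0.24), the Hsp70-Hsp90 adaptor Stip1 (-0.76 ± 0.20) and the chaperone Hspa8 (-0.65 ± 0.15). At wild-type-labelled 48 h 3 fell as well, Dnajb1 (-1.29 ± 0.24), the Fkbp5 relative Fkbp4 (-0.65 ± 0.14, adjusted p = 0.00248) and Hspa8 (-0.58 ± 0.15). The median of these 10 at 48 h was -0.37 in mutant-labelled tissue, beside 0.02 over all 5396 tested genes, and -0.43 in wild-type-labelled tissue, beside -0.02. Fkbp4 was higher in the mutant-labelled than in the wild-type-labelled arrays at 48 h (0.45 ± 0.14, adjusted p = 0.0283). So was Hsp90aa1, which holds the receptor ready for hormone, at 8 h (0.69 ± 0.17, adjusted p = 0.0272). At 0 h the receptor coactivator Ncoa1 was lower in the mutant-labelled arrays (-0.76 ± 0.18, adjusted p = 0.00563), the 1 of the 10 called there. Of all genes 7.47% were higher and 9.91% lower in that comparison. At 2 h, on the arrays of doubtful RNA, 2 of the 10 were lower in the mutant-labelled arrays, where 6.08% of all genes were.

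The enzymes that make and destroy active hormone inside cells were dim. Hsd11b1, which regenerates it, read 170.1 to 468.0 and did not pass the filter. Both probe sets of Hsd11b2, which inactivates it, were at or below the floor on all 30 arrays. The liver hormone targets Tat and Pck1 were at or below the floor on 28 and 29 arrays. H6pd, which supplies Hsd11b1 with cofactor, was bright and was called in no comparison. Its wild-type-labelled differences were -0.33 ± 0.13 at 2 h against 0 h (adjusted p = 0.193) and 0.31 ± 0.13 at 8 h against 2 h (adjusted p = 0.27).

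Other genes that glucocorticoids are known to induce moved in both directions. In the mutant-labelled arrays the anti-inflammatory annexin Anxa1 rose at 8 h (0.95 ± 0.16, adjusted p = 0.00162) and 16 h (0.63 ± 0.16), and its difference was -0.08 at 48 h. Of the 32 tested genes of this list 2 rose and 1 fell at 8 h, 1 rose and 3 fell at 16 h, and 3 rose and 6 fell at 48 h. Errfi1, an inhibitor of the EGF receptor, fell at 8, 16 and 48 h (-1.06, -0.97 and -0.85, each ± 0.27), and the G protein regulator Rgs2 fell at 16 h (-0.75 ± 0.18) and 48 h (-0.72 ± 0.18). Cebpd, a transcription factor of the acute phase, fell at 48 h (-1.16 ± 0.27), while Snai2 (0.58 ± 0.12), Lpin1 (0.52 ± 0.13) and Mt1 (0.42 ± 0.12) rose. At 2 h, on the arrays of doubtful RNA, 2 rose and 5 fell, Klf9 furthest (-1.18 ± 0.34). Between genotypes at 0 h Cebpb (0.74 ± 0.11) and Cdkn1c (0.73 ± 0.15) were higher and Snai2 (-0.55 ± 0.12) and Tle3 (-0.51 ± 0.11) lower in the mutant-labelled arrays. The list's median there was -0.07, against -0.05 over all genes, of which 7.47% were higher and 9.91% lower. At 2 h, on the arrays of doubtful RNA, 1 was higher and 1 lower, at 8 h 1 was higher, and at 16 h 2 were higher and 2 lower. Of all genes 1.76%, 1.3% and 3.24% were higher at these 3 times, and 6.08%, 1.3% and 4.95% were lower. At 48 h 6 were lower and 0 higher, where 8.99% of all genes were lower, with Il1r2 at -1.92 ± 0.43, Cebpd at -1.08 ± 0.27 and Anxa1 at -1.02 ± 0.16.

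In the wild-type-labelled arrays 0 of the same 32 genes changed at 2 h, where the median was -0.14 against -0.02 over all genes. At 8 h 1 rose, Anxa1 (0.90 ± 0.16, adjusted p = 0.0109), and at 16 h 4 rose, among them Anxa1 (0.68 ± 0.16), the cell cycle inhibitor Cdkn1c (0.52 ± 0.15) and Mgst1 (0.41 ± 0.11). At wild-type-labelled 48 h 5 rose and 3 fell. The interleukin 1 decoy receptor Il1r2 (1.84 ± 0.43), Anxa1 (1.20 ± 0.16) and the microsomal glutathione transferase Mgst1 (0.59 ± 0.11) led the rises, and the sodium pump subunit Atp1b1 (-0.93 ± 0.18), Tle3 (-0.46 ± 0.11) and Foxo3 (-0.40 ± 0.11) fell. The clock gene Per1 differed from 0 h by -0.13, -0.90, -1.08 and -0.72 at 2, 8, 16 and 48 h and passed at none. The metallothioneins Mt1 and Mt2 and the NF-kappaB inhibitor Nfkbia were not called at any time in wild-type-labelled tissue.

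Among inflammatory genes that the hormone represses, calls against 0 h were most frequent in wild-type-labelled tissue at 48 h. Of 13 tested, 3 rose at mutant-labelled 2 h, on the arrays of doubtful RNA, the chemokine Cxcl1 (1.97 ± 0.57), Il6, the fever cytokine (1.80 ± 0.47), and the cytokine Il1b (1.29 ± 0.40), and 0 changed at wild-type-labelled 2 h. At 2 h 7.58% of all tested genes were higher in mutant-labelled tissue and 0.519% in wild-type-labelled tissue. Cxcl1 was also higher in the mutant-labelled than in the wild-type-labelled arrays at 2 h (2.20 ± 0.57, adjusted p = 0.017), where 1.76% of genes were. After this, 3 were higher at mutant-labelled 8 h and 1 at wild-type-labelled 8 h, with Ccl2, which attracts monocytes, up in both (1.89 ± 0.39 and 2.28 ± 0.39 on floored values), where 1.32% and 0.167% of all genes were higher. At 16 h 1 rose in mutant-labelled tissue, and in wild-type-labelled tissue 2 rose and Il6 fell (-1.95 ± 0.47), where 2.08% of genes rose in mutant-labelled tissue, and 3.52% rose and 2.89% fell in wild-type-labelled tissue. At 48 h 1 rose in mutant-labelled tissue, Irf1 (0.84 ± 0.18), and 8 rose in wild-type-labelled tissue, led by the chemokine Cxcl2 (5.40 ± 0.64), the protease Mmp3 (3.79 ± 0.29) and Ccl2 (3.02 ± 0.39), again on floored values, where 5.08% and 8.15% of all genes rose. Between genotypes 8 of 13 were lower in the mutant-labelled arrays at 48 h (median -1.84, against -0.02 over all genes), where 8.99% of genes were lower. At that time the Fkbp5 difference was 0.06 ± 0.21 and Dusp1 was lower in the mutant-labelled arrays.

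Some of the immediate early genes, which cells switch on within minutes of a stimulus, were called lower than at 0 h. This was so from 8 h on in mutant-labelled tissue and at 16 h and 48 h in wild-type-labelled tissue. Of 16 tested, 3 fell at mutant-labelled 2 h, on the arrays of doubtful RNA, Maff (-1.68 ± 0.21), Jun (-0.52 ± 0.18) and Jund (-0.49 ± 0.15), and 0 changed at wild-type-labelled 2 h. At 8 h 6 fell in mutant-labelled tissue, where 0.667% of all genes did, with the nuclear receptor gene Nr4a1 (-2.50 ± 0.42), Ccn1 (-2.06 ± 0.36) and the transcription factor gene Fos (-1.72 ± 0.33) furthest, and 0 changed in wild-type-labelled tissue. At 16 h 9 fell in mutant-labelled and 8 in wild-type-labelled tissue, where 1.95% and 2.89% of all genes did. At 48 h 10 fell in mutant-labelled tissue, where 5.17% of genes did, and 5 fell and 1 rose in wild-type-labelled tissue, where 7.25% fell and 8.15% rose. At 16 h Nr4a1 changed by -3.34 ± 0.42 in mutant-labelled and -2.50 ± 0.42 in wild-type-labelled tissue, and Fos by -3.09 ± 0.33 and -1.66 ± 0.33. At 48 h 5 of the 16 were lower in the mutant-labelled than in the wild-type-labelled arrays, where 8.99% of all genes were, Fos (-1.52 ± 0.33), Ier3 (-1.18 ± 0.29) and Egr1 (-1.16 ± 0.27) furthest, beside Dusp1 at -0.79 ± 0.16.

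**Figure D5:**
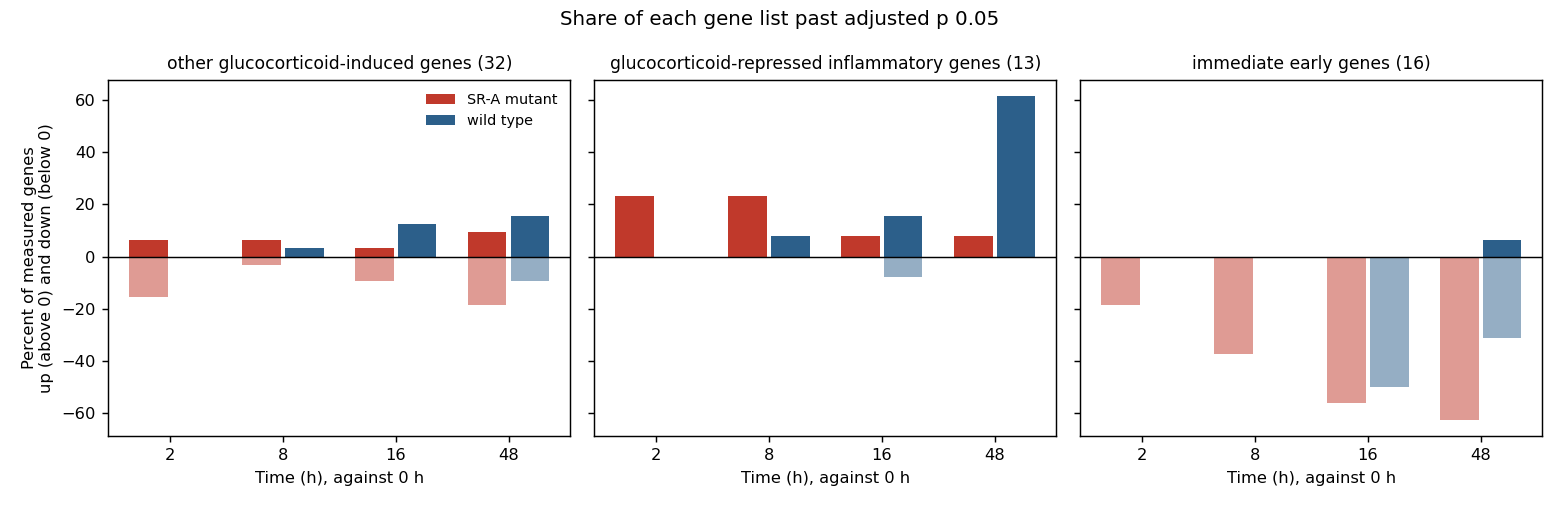
Percent of the tested genes of 3 lists that rose (bars above 0) or fell (paler bars below 0) past an adjusted p of 0.05, at 2, 8, 16 and 48 h against 0 h, red for SR-A mutant and blue for wild type. Of the 32 other glucocorticoid-induced genes 3 rose and 6 fell in the mutant at 48 h and 5 rose and 3 fell in the wild type, where 5.08% and 5.17%, and 8.15% and 7.25%, of all tested genes did. Of the other lists, 8 of 13 repressed genes rose in the wild type at 48 h, and 9 of 16 immediate early genes fell in the mutant and 8 in the wild type at 16 h.

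The genes whose pattern was most like that of each bright member were found over the 27 arrays outside the mutant-labelled 2 h group. For Fkbp5 they were H6pd (r = 0.79), Trmt1 (r = 0.74) and Hbs1l (r = 0.74), none of which passed the threshold in any comparison. For Zbtb16 they were Arih2 (r = 0.80), Sesn1 (r = 0.77) and Rragc (r = 0.74), and of these Arih2 fell at wild-type-labelled 16 h (-0.46). For Sgk1 they were Txnip (r = 0.75), Per1 (r = 0.71) and Ccn1 (r = 0.71). Txnip and Per1 stand on the list of other induced genes, which held 32 of the 5396 genes. Per1 stands on the list of clock genes as well, and Ccn1 on that of immediate early genes. For Dusp1 they were Rgs7 (r = 0.89), Ifrd1 (r = 0.89) and Snhg1 (r = 0.86). These correlations are the highest over all tested genes and were picked for being so.

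Markers of other cells were set beside the members, since in whole tissue fewer cells of a type and less RNA per cell cannot be told apart. Of 14 T and natural killer cell markers 12 were on the array and 0 passed the filter, with Cd3e, Cd3d and Cd3g, which define T cells, at or below the floor on all 30 arrays. The fat cell markers on the array, 4 of 6, summed to 1785 to 1846.5 in the mutant-labelled 0 h arrays and 3097.1 to 3301 in the wild-type-labelled 0 h arrays. They summed to 1923.2 to 2615.8 at wild-type-labelled 2 h and 2450.1 to 2687.4 at 16 h. Most of the sum was the fat hormone gene Lep, with medians of 820 at mutant-labelled 0 h, 1955 at wild-type-labelled 0 h, 1277.5 at wild-type-labelled 2 h and 1331.7 at 16 h. The lipase gene Lpl, the other marker bright enough to be tested, did not follow it throughout, with medians of 677.1, 812.9, 681.7 and 905.7 in the same groups. Adipoq, which defines fat cells, and Fabp4 did not pass the filter. Over the 27 arrays the log2 sum of all 4 fat cell markers, most of it Lep, followed Fkbp5 with r = 0.16 and Zbtb16 with r = 0.22. Within groups it followed them with r = -0.30 and -0.20. The neutrophil markers, 10 of 11 on the array, summed to 38613.7 to 42901 at mutant-labelled 0 h and 42944.9 to 49268.5 at wild-type-labelled 0 h. They summed to 30392.2 to 38355 at wild-type-labelled 2 h and to 59237 to 73727.7 at 16 h, when Zbtb16 was lowest. Other marker sums also lay apart between the genotypes at 0 h. B and plasma cell markers summed to 4896.4 to 9068.9 in the mutant-labelled and 1636.1 to 2147.6 in the wild-type-labelled arrays. Red blood cell markers summed to 44296 to 55014.9 and 37449.4 to 43015. Glia and myelin markers were lower in the mutant-labelled arrays, 5278.3 to 5693.1 against 5963.9 to 6823.2. The part of all these cells in the Fkbp5 and Zbtb16 results was not tested.

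Beside the Dusp1 difference at 48 h, the neutrophil sum was 62167.3 to 84355.4 in the mutant-labelled and 87172.1 to 118019.5 in the wild-type-labelled arrays. The macrophage markers, 15 of 15 on the array, summed to 30075.7 to 37197 at mutant-labelled 48 h, against 34410.4 to 39308.5 at wild-type-labelled 48 h. The mature sensory neuron markers, 6 of 11 on the array and all bright, summed to 68777.3 to 78855.1 in the mutant-labelled and 57461.3 to 67205.9 in the wild-type-labelled arrays at 48 h. At 0 h they summed to 93158.3 to 110654 in the mutant-labelled and 84340.9 to 99989 in the wild-type-labelled arrays. Other marker sums lay apart at 48 h as well. Mutant-labelled sums were higher for supporting cells (50649.1 to 55705.8 against 31115.4 to 49760.5) and fibroblasts and bone (73444.2 to 110849.1 against 48690.6 to 56442.1). They were also higher for B and plasma cells (4058 to 7420.6 against 1536 to 1958.6) and lower for fat cells (1732.8 to 2063.6 against 2373.7 to 3356.7). The part of all these cells in the Dusp1 result was not tested.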

How the data were processed

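Olfactory epithelium was measured on Affymetrix arrays with biotin-labelled total RNA, per the labels. The deposited values were linear signal intensities of MAS5, named per the submitters' processing notes without a version. The deposited arrays had equal trimmed means.

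Signals were floored at 113.7, the 25th percentile of all signals, before log2. Testing required a signal over 572, the median of all signals, on 3 or more arrays; 6968 probe sets met this, 5454 did not, and 66 were controls. The means of the 10 groups were estimated with limma 3.58.1 (R 4.3.3), and 18 contrasts and a moderated F test of genotype and time were taken, two-sided. The members and gene lists were chosen with earlier results of these data known. Named were all members, the 3 genes most like each bright member, and up to 3 rises and 3 falls per list and comparison with a few listed pathway genes. A gene with several probe sets was read from its brightest tested one.

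The fit was tested on simulated data, 6968 probe sets of which 100 were changed 2-fold and 100 4-fold. Wild type at 2 h against 0 h recovered 86% and 97% and called 11 unchanged, and the genotype and time test 68% and 94% with 9 unchanged. As alternatives, the filter was dropped, and the others were a pseudocount of 16, quantile normalization, a robust fit with a mean-variance trend, replicate numbers as a block, fits of only the groups compared, the mutant-labelled 2 h arrays left out, and each array left out. Same-numbered arrays deviated together (r over 0.1) in 10 of 54 pairs and in all pairs of 0 of 18 contrasts, so the numbers were not taken as pairs. Tables and plots were made in Python 3.11.15 (numpy 2.4.6, pandas 2.3.3, matplotlib 3.10.9). Symbols came from the platform table and promoters from RefSeq, GRCm38.p6.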

Additional observations from a re-analysis of the deposited data

Results flagged for a closer look

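Fkbp5 and Zbtb16 changed differently from 0 h in the labelled genotypes, by a moderated F test of the difference itself in limma. The adjusted p was 0.0113 for Fkbp5 and 0.0259 for Zbtb16, in a test that called 14.7% of all tested probe sets. It uses the mutant-labelled 2 h arrays of doubtful RNA, and without them the adjusted p was 0.0205 and 0.0413. The Zbtb16 call was lost without the filter (adjusted p = 0.0621) and without certain single arrays (adjusted p up to 0.0565). At 16 h the mutant-labelled change was 0.67 in Fkbp5 and 0.71 in Zbtb16, and the wild-type-labelled change -0.72 and -2.44 on the log2 scale. The 0 h arrays enter every one of these changes, and the genotypes differed there by -0.94 and -1.78. Whether the 0 h mice were handled or sampled at the same hour in both genotypes is not stated, and its part was not tested.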

How the results depend on the processing

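Over the 4 tested members, 18 comparisons and the genotype and time test, none of the other settings turned the direction of a called value. Quantile normalization, a pseudocount of 16 and the replicate number as a block left all 76 member results on their side of the threshold. With the replicate block Fkbp5 had adjusted p = 0.0332 at wild-type-labelled 2 h, and over all probe sets 15 were called there in place of 40. A fit of only the groups compared gave 1 member in place of 0 at wild-type-labelled 48 h and at mutant-labelled 8 h, 0 in place of 1 at mutant-labelled 16 h, 1 in place of 2 at mutant-labelled 48 h, and 0 in place of 1 for wild type 8 h against 2 h and for the genotypes at 48 h. Without the filter 1 in place of 0 was called at mutant-labelled 2 h and between genotypes at 2 h, in both cases Nr3c1. Without the mutant-labelled 2 h arrays 2 in place of 1 were called at mutant-labelled 16 h. Leaving out 1 array gave 0 to 1 members at wild-type-labelled 2 h and 48 h, at mutant-labelled 8 h, for wild type 8 h against 2 h and 16 h against 8 h, for mutant 48 h against 16 h and for the genotypes at 16 h. It gave 1 to 3 at wild-type-labelled 16 h, 0 to 2 at mutant-labelled 16 h, 1 to 2 at mutant-labelled 48 h and between genotypes at 0 h, and 1 to 3 by the genotype and time test. Where fewer arrays were used the test has less information, and the cause of the other shifts was not tested. Counts over all probe sets moved more: 15 to 132 around 40 at wild-type-labelled 2 h, 0 to 22 around 14 at 8 h, 434 to 738 around 455 at 16 h, 145 to 361 around 254 at mutant-labelled 16 h, 204 to 923 around 660 at mutant-labelled 48 h and 31 to 1249 around 1233 at mutant-labelled 2 h. Between genotypes they ran from 23 to 632 around 629 at 2 h, 14 to 477 around 205 at 8 h, 373 to 782 around 587 at 16 h and 339 to 1392 around 1136 at 48 h, and for the genotype and time test from 415 to 1122 around 1026. Between later times they ran from 2 to 105 around 75 for wild type 8 h against 2 h, 5 to 157 around 86 for 16 h against 8 h, 48 to 326 around 254 for 48 h against 16 h, and in the mutant 51 to 181 around 132 and 57 to 627 around 425. Tsc22d3, Nr3c1 and 1 Zbtb16 probe set lay near background, where signal limits any reading.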

Other observations

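Phosphatases related to Dusp1 moved in both directions. Of 5 tested, Dusp6, which acts on ERK, rose at mutant-labelled 8 h (0.60 ± 0.13, adjusted p = 0.0104) and was lower at 16 h than at 8 h (-0.89 ± 0.13, adjusted p = 0.000349). Dusp16 was lower than at 0 h at mutant-labelled 8, 16 and 48 h (-0.37, -0.36 and -0.33) and at wild-type-labelled 48 h (-0.30), each ± 0.095. At wild-type-labelled 16 h Dusp8 rose (0.50 ± 0.13, adjusted p = 0.0205) and Dusp12 fell (-0.77 ± 0.22, adjusted p = 0.039). At mutant-labelled 2 h, on the arrays of doubtful RNA, Dusp8 fell (-0.86 ± 0.13), and there Dusp8 was lower (-0.70 ± 0.13) and Dusp6 higher (0.54 ± 0.13) than at wild-type-labelled 2 h. Dusp6 was higher at wild-type-labelled 8 h than 2 h (0.54 ± 0.13). The hour at which tissue was taken is not stated. Of 13 tested clock genes, which follow the time of day, several were called against 0 h in mutant-labelled tissue. At 2 h, on the arrays of doubtful RNA, Cry2 (-1.84 ± 0.24) and Per3 (-0.77 ± 0.16) fell and Bhlhe40 (0.59 ± 0.18) and Per2 (0.57 ± 0.14) rose. Cry1 rose at 8 h (0.41 ± 0.11, adjusted p = 0.0452), Bhlhe40 fell at 16 h (-0.66 ± 0.18, adjusted p = 0.0399) and 0 were called at 48 h. Of all genes 7.58%, 1.32%, 2.08% and 5.08% rose at 2, 8, 16 and 48 h, and 8.95%, 0.667%, 1.95% and 5.17% fell. In wild-type-labelled tissue 0 of the 13 were called against 0 h at any time. There 0.519%, 0.167%, 3.52% and 8.15% of all genes rose at 2, 8, 16 and 48 h, and 0.167%, 0.0185%, 2.89% and 7.25% fell. Cry1 was lower at 16 h than at 8 h in both genotypes (-0.57 ± 0.11, adjusted p = 0.00507, in the mutant-labelled and -0.43 ± 0.11, adjusted p = 0.0486, in the wild-type-labelled arrays), and Dbp was higher at mutant-labelled 48 h than 16 h (1.41 ± 0.30, adjusted p = 0.00621). Per2 was also higher there (0.59 ± 0.14), and Bhlhe40 was lower at mutant-labelled 16 h than 8 h (-0.72 ± 0.18). Between genotypes at 0 h, where Fkbp5 and Zbtb16 differed, 0 of the 13 were called, beside 7.47% of all genes higher and 9.91% lower. The part of the hour of day in the results was not tested. Against wild-type-labelled arrays of the same time, Cry2 was lower in the mutant-labelled arrays at 2 h (-1.74 ± 0.24), on the arrays of doubtful RNA. In the same kind of comparison Bhlhe40 was lower at 16 h (-0.70 ± 0.18) and 48 h (-0.73 ± 0.18). At 48 h Nfil3 was also lower (-1.16 ± 0.33) and Dbp higher (0.87 ± 0.30) than in the wild-type-labelled arrays. Between genotypes 1.76%, 3.24% and 7.36% of all genes were higher at 2, 16 and 48 h, and 6.08%, 4.95% and 8.99% were lower.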
